A study of Mus musculus with 8 samples.

Results

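Lgr5, Axin2, Ascl2, Smoc2, Rnf43, Znrf3, Nkd1, Notum, Sp5 and Tnfrsf19 are 10 genes that serve as readouts of Wnt signalling or as labels of the stem cells at the base of the colonic crypt. They were picked by gene symbol from the 32285 genes listed in each library, and each symbol stood for 1 gene. Their UMIs, the molecular identifiers that mark single captured transcripts, were followed in 8 single-cell 10x Genomics libraries of mouse colon, 2 for each of 4 groups, and in the epithelial cells with and without an Lgr5 UMI. The mice were C57BL/6 males, 6 to 12 weeks old, with no transgene or treatment given for the sequenced groups. Tissue epithelium came from crypts freshly detached from the colon. Organoid epithelium came from crypt cells grown without stroma in Matrigel, a culture whose full medium holds surrogate Wnt, the GSK3 inhibitor CHIR-99021, R-spondin 1 and noggin. Assembloid epithelium came from organoids embedded with cultured primary colon stromal cells and grown for 4 to 5 days without these added factors, and assembloid stroma held the EpCAM-negative cells of such cultures. Assembloids were digested with Liberase TL, DNase I and TrypLE. Tissue crypts were detached with EDTA and DTT before TrypLE, and organoids were given TrypLE. The medium and culture day of the sequenced organoids were not given in the sources used here. Age in culture, medium, the presence of stroma and the way cells were released therefore cannot be told apart between the groups.

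Wnt ligands bind Frizzled and LRP receptors at the cell surface, which stops the destruction complex of AXIN, APC and GSK3 from degrading β-catenin, so that β-catenin enters the nucleus and switches on target genes together with TCF/LEF factors. R-spondins strengthen the signal by binding LGR receptors and taking the ligases RNF43 and ZNRF3 off the membrane. In the colon, this activity is known to be highest at the crypt base, where it maintains the stem cells, and several of its targets feed back to restrain it.

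Cells with at least 500 detected genes and at most 10% mitochondrial UMIs were kept, and in the epithelial libraries a cell also had to hold more UMIs of 7 epithelial genes than of fibroblast, endothelial, glial, neuronal, macrophage and lymphocyte genes together. This left 4303 to 27526 cells per library with a median of 3421 to 35219 UMIs per cell, and 36938060 to 187583982 UMIs in all. More assembloid epithelial and stromal cells, and fewer tissue and organoid cells, were kept than the study gives. Assembloid replicate 1 alone, with 27526 cells, exceeded the study's number for both epithelial assembloid libraries. Shares and levels may therefore depend on which cells were kept. Only 38.6% and 25.4% of the tissue barcodes were kept, against 47.9% to 96.1% in the other groups. Pairs of libraries shared at most 0.982% of the barcodes of the smaller library. Levels are given in CPM, the UMIs of a gene for each 1000000 UMIs of the kept cells of a library. All 7 epithelial genes were above 1 CPM in every epithelial library, and the 7 fibroblast genes summed to 6808 and 10933 CPM in the stroma libraries. In the cells kept from assembloids, the 7 fibroblast genes summed to 257 and 61.8 CPM, with 7 and 6 of them above 1 CPM, against sums of 0.021 to 0.054 in organoids and tissue. The 8 macrophage genes summed to 98.2 and 49.9 in assembloid epithelium and to 3.67 to 7.62 in organoids and tissue. Glial genes summed to 642 and 392 in assembloid epithelium and to 33.8 to 105 in organoids and tissue, nearly all of it from Erbb3. A stricter gate of at least 10 times as many epithelial as other marker UMIs was fitted for the members, and their calls that changed under it are given beside their values. Erbb3 counted among the other markers, so this gate could drop cells for Erbb3 alone and is no clean check for other cell types. In assembloid replicate 1 it kept 488 of 810 cells with an Lgr5 UMI and 14659 of 26716 without one. In tissue replicate 1 it kept 274 of 284 and 4275 of 4401. The part of fibroblasts, macrophages and glia in the further gene lists was not tested.

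The genes lie apart from each other in the genome (GENCODE M21, GRCm38), and all 10 are protein coding. Lgr5 spans chr10:115450311-115587780 on the minus strand, Axin2 chr11:108920349-108950783 on the plus strand and Ascl2 chr7:142966829-142969264 on the minus strand. Smoc2 spans chr17:14279506-14404790 (plus), Rnf43 chr11:87662722-87735539 (plus), Znrf3 chr11:5276324-5444847 (minus) and Nkd1 chr8:88521354-88594884 (plus). Notum lies at chr11:120653788-120661175 (minus), Sp5 at chr2:70474923-70477729 (plus) and Tnfrsf19 at chr14:60963875-61046490 (minus). Rnf43 overlaps 1110028F11Rik and Nkd1 overlaps Gm45496 on the same strand, so reads of these pairs could be shared. RefSeq promoters, read from 250 bases before to 50 after a start site, were found for 6 of the genes (8 entries, GRCm38.p6). CTTTGA, the core of the TCF/LEF motif, was searched on both strands (TCAAAG on the other), and 2 of the 8 entries held it, against 16.0% of all 32851 promoters of that length. Sp5 and Tnfrsf19 held it, and they are shown because they held the motif, with Axin2 as a general Wnt target that held none. The 250 bases before the start are printed 5′ to 3′ on the strand of the gene, with the motif in capitals. They cover chr2:70474673-70474922 (plus, upstream of Sp5), chr11:108920099-108920348 (plus, upstream of Axin2) and chr14:61037988-61038237 (minus, in an intron of Tnfrsf19 before a second start).
Sp5: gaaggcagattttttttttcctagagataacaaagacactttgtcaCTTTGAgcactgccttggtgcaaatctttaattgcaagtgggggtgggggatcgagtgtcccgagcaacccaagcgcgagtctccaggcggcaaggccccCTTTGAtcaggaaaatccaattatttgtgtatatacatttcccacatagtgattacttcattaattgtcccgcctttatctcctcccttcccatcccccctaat
Axin2: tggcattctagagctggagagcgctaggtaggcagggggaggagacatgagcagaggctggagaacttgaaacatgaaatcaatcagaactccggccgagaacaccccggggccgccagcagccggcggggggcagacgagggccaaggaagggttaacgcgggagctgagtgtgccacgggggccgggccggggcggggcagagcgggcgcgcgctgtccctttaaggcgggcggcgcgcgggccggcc
Tnfrsf19: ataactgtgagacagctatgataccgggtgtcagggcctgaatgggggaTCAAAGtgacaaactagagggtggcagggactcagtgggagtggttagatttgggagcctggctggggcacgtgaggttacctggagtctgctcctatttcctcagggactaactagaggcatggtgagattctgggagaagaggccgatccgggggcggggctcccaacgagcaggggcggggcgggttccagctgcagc
The motif began 204 and 104 bases before the Sp5 start and 201 bases before this Tnfrsf19 start. A match of letters is a description and no measured binding, and a window without it says nothing of the factor.

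Organoid epithelium held the highest epithelial levels of most members, and among the 3 epithelial groups assembloids lay lowest for Lgr5, Axin2, Ascl2, Smoc2, Rnf43 and Znrf3. These levels compare libraries, not genes with each other. In such sums, fewer cells of a type and less RNA per cell cannot be told apart. Differences between the 3 epithelial groups were tested in 1 fit of edgeR's quasi-likelihood test over 19197 genes with TMM scaling and Benjamini-Hochberg adjustment, and a gene was called at an adjusted p under 0.05. All 10 members entered that fit. TMM scaling raised the log2 fold changes by a median of 0.398 for assembloids over tissue and 0.235 for organoids over tissue, and it moved organoids over assembloids by -0.166, relative to the ratio of the levels. The sign of Notum between organoids and tissue depended on it, at 0.09 fitted against -0.18 for the plain ratio, and no other member changed sign.

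**Figure D1:**
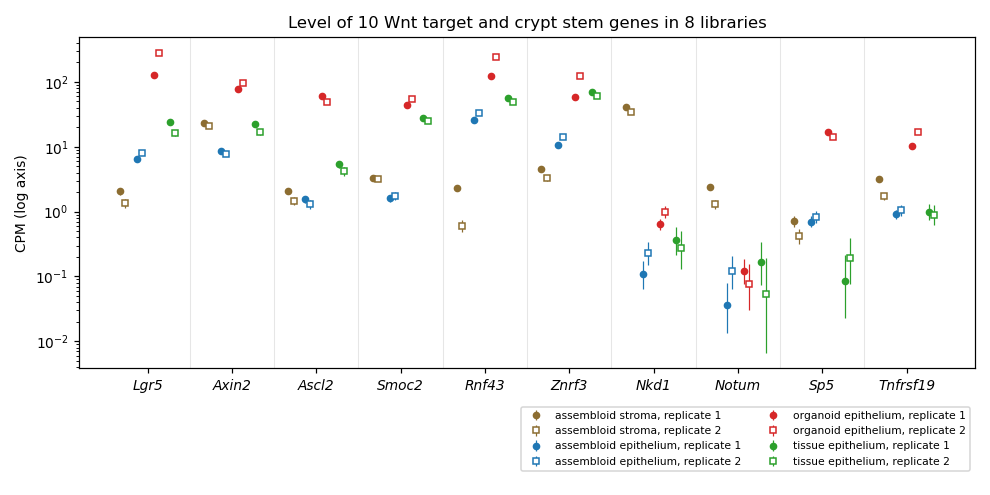
Level of each member in the 8 libraries, in CPM on a log axis, with circles for replicate 1, squares for replicate 2 and bars for the 95% Poisson interval, which covers counting error only. Both organoid libraries lie above all other epithelial libraries for Lgr5, Axin2, Ascl2, Smoc2, Rnf43, Nkd1, Sp5 and Tnfrsf19, and the stroma libraries lie highest for Nkd1 and Notum.

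Assembloid and tissue epithelium were compared first, since the tissue is what the co-culture models. Of the 10 members, 5 were lower in assembloids (Lgr5, Axin2, Ascl2, Smoc2 and Znrf3) and Sp5 was higher, against 49.5% of all genes tested that were called in either direction, 26.6% called higher and 23% called lower. The median log2 fold change of the members was -0.67, beside 0.03 over all genes tested. Between organoids and tissue, 8 members were higher in organoids and Znrf3 and Notum were not called, where 24.3% of genes were called higher, 22.9% lower and 47.2% in either direction. The median was 2.17 beside 0.06 over all genes. Between organoids and assembloids, 9 members were higher in organoids, all but Notum, again against 24.3% of genes called higher, 28.4% lower and 52.7% in either direction, with a median of 3.40 beside -0.01. The comparisons share libraries, so their counts are not independent of each other.

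Lgr5, the R-spondin receptor that labels cycling crypt base stem cells, was measured at 6.56 and 7.96 CPM in assembloids, 128 and 283 for organoid epithelium, 24.2 and 16.2 in tissue and 2.05 and 1.34 in stroma. The 3 epithelial groups did not overlap, and the organoid libraries differed from each other by more than those of any other group. Part of the Lgr5 UMIs of stroma lay in small epithelial clusters of those libraries, given below. Lgr5 was lower in assembloids than in tissue by a log2 fold change of -1.08 ± 0.31 (SE; adjusted p = 0.0192, edgeR). That call was lost without tissue replicate 1 (-0.78, adjusted p = 0.178), without assembloid replicate 1 (-1.01, adjusted p = 0.0803) and with at most 5% mitochondrial UMIs (-0.55, adjusted p = 0.0785). Organoids exceeded tissue by 3.53 ± 0.33 (adjusted p = 9.2e-05) and assembloids by 4.61 ± 0.35 (adjusted p = 6.74e-05).

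Axin2, a scaffold of the destruction complex and a general Wnt target, read 8.67 and 7.82 CPM in assembloids, 76.5 and 95.5 in organoids, 22.1 and 16.6 in tissue and 23.5 and 21.1 in stroma. Its stroma and tissue levels lay close together, unlike those of the other members, and the epithelial groups again stood apart. The log2 fold change was -0.82 ± 0.21 for assembloids over tissue (adjusted p = 0.0135), 2.38 ± 0.22 for organoids over tissue (adjusted p = 8.82e-05) and 3.20 ± 0.23 for organoids over assembloids (adjusted p = 5.45e-05). The difference between assembloids and tissue missed the threshold without tissue replicate 1 (-0.63, adjusted p = 0.166) and without assembloid replicate 2 (-0.67, adjusted p = 0.078).

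Rnf43 and Znrf3 encode the membrane ligases that clear Frizzled receptors and so restrain Wnt signalling. Rnf43 measured 25.5 and 32.7 CPM in assembloids, 123 and 238 in organoids, 56.0 and 49.8 in tissue and 2.34 and 0.608 in stroma. Znrf3 measured 10.6 and 14.4 in assembloids, 59.5 and 121 in organoids, 70.6 and 59.9 in tissue and 4.61 and 3.28 in stroma. Thus Rnf43 was highest in organoids, whereas the organoid and tissue libraries overlapped for Znrf3. Znrf3 was lower in assembloids than in tissue by -1.99 ± 0.27 (adjusted p = 0.000597), and the value for Rnf43, -0.47 ± 0.25, missed the threshold (adjusted p = 0.146). Over tissue, organoids gave 1.96 ± 0.25 for Rnf43 (adjusted p = 0.000435) and 0.66 ± 0.26 for Znrf3 (adjusted p = 0.0634). Over assembloids, organoids gave 2.43 ± 0.26 for Rnf43 (adjusted p = 0.00023) and 2.65 ± 0.27 for Znrf3 (adjusted p = 0.000204). Without 1 organoid library, Rnf43 was called lower in assembloids than in tissue (-0.48, adjusted p = 0.0361 without replicate 1 and 0.029 without replicate 2), and Znrf3 was called higher in organoids than in tissue without organoid replicate 1 (0.95, adjusted p = 0.0134). The latter was also called with at most 5% mitochondrial UMIs (0.79, adjusted p = 0.00347) and with no low-count filter (0.72, adjusted p = 0.0174).

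Nkd1, which binds Dishevelled, and Notum, a secreted enzyme that inactivates Wnt ligands, were nearly silent in the epithelium. Nkd1 gave 18 and 25 UMIs in assembloids, 119 and 93 for organoids and 17 and 10 for tissue, or 0.109 to 1.00 CPM. The stroma libraries held 6673 and 4882 Nkd1 UMIs, or 41.3 and 34.9 CPM. For Notum, the epithelial libraries held 2 to 23 UMIs each and the stroma libraries 391 and 180, or 2.42 and 1.29 CPM. Stroma and epithelium did not overlap for either gene. Their libraries differ in the cells they were labelled to hold and in the version of the counting software, so that these cannot be told apart, and no test was made. Nkd1 was called higher in organoids than in tissue (1.57 ± 0.52, adjusted p = 0.0351) and than in assembloids (2.10 ± 0.51, adjusted p = 0.00856). The first of these calls was lost without any 1 of the 4 organoid and tissue libraries (adjusted p = 0.0938 to 0.2), with DESeq2 (adjusted p = 0.0668) and with at most 5% (1.22, adjusted p = 0.115) or 20% (0.83, adjusted p = 0.165) mitochondrial UMIs. At 20%, Nkd1 was called lower in assembloids than in tissue (-1.36, adjusted p = 0.0438). Notum was called in none of the comparisons.

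Ascl2 and Sp5 encode transcription factors, of which ASCL2 sets the fate of crypt stem cells and SP5 is a direct Wnt target. Ascl2 measured 1.54 and 1.29 CPM in assembloids, 60.2 and 48.6 in organoids, 5.40 and 4.17 in tissue and 2.11 and 1.45 in stroma. Sp5 measured 0.701 and 0.824 in assembloids, 16.8 and 14.2 in organoids, 0.0851 and 0.190 in tissue and 0.705 and 0.415 in stroma. Sp5 was the 1 member called higher in assembloids than in tissue, and its tissue level rested on 4 and 7 UMIs (95% Poisson interval 0.0232 to 0.218 and 0.0762 to 0.391 CPM). These UMIs lay in 3 and 4 cells, whereas the interval treats UMIs as independent. Assembloids exceeded tissue by 2.91 ± 0.44 for Sp5 (adjusted p = 0.00106) and lay below it for Ascl2 (-1.34 ± 0.28, adjusted p = 0.00533). Without tissue replicate 1, the Ascl2 difference narrowly missed the threshold (-1.17, adjusted p = 0.0503). Organoids exceeded tissue by 7.12 ± 0.43 for Sp5 (adjusted p = 1.26e-05) and 3.77 ± 0.30 for Ascl2 (adjusted p = 4.04e-05). Over tissue, the Sp5 fold rested on few UMIs and stayed called at 2.03 in assembloids and 6.47 in organoids with at most 5% mitochondrial UMIs, 3.68 and 7.84 with at most 20%, 3.54 and 7.77 without tissue replicate 2, and 3.73 and 7.98 without the highest cell. Over assembloids, the organoid values were 4.21 ± 0.34 for Sp5 (adjusted p = 8.41e-05) and 5.11 ± 0.32 for Ascl2 (adjusted p = 3.52e-05).

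Smoc2 encodes a secreted calcium-binding matrix protein known as a marker of intestinal stem cells. Its level was 1.62 and 1.74 CPM in assembloids, 43.5 and 54.3 in organoids, 27.8 and 24.6 in tissue and 3.34 and 3.22 in stroma. No other member was as far below tissue in assembloids, at -3.56 ± 0.20 (adjusted p = 1.34e-05), and every library left out kept this call. Organoids exceeded tissue by 1.13 ± 0.18 (adjusted p = 0.00113) and assembloids by 4.69 ± 0.20 (adjusted p = 1.9e-05).

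Tnfrsf19, a TNF receptor family member also called Troy, read 0.913 and 1.05 CPM in assembloids, 10.1 and 17.1 in organoids, 0.999 and 0.893 in tissue and 3.21 and 1.72 in stroma. In assembloids, however, 106 of its 151 UMIs lay in a single cell of replicate 1 and 73 of 112 in a single cell of replicate 2. Without the highest cell of each library the assembloid levels were 0.272 and 0.365 and the tissue levels 0.914 and 0.785, and the difference between assembloids and tissue went from 0.45 ± 0.28 (adjusted p = 0.21) to -1.03 (adjusted p = 0.0225). The stricter gate gave -1.03 as well (adjusted p = 0.0233). Organoids exceeded tissue by 4.05 ± 0.29 (adjusted p = 2.67e-05) and assembloids by 3.60 ± 0.28 (adjusted p = 7.12e-05), the latter 5.22 without the highest cells and 5.11 under the stricter gate. With at most 5% mitochondrial UMIs, organoids exceeded tissue by 3.37 and the call was kept. For Znrf3, 1 cell of assembloid replicate 1 held 91 of 1760 UMIs, and no call for it depended on that cell.

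**Figure D2:**
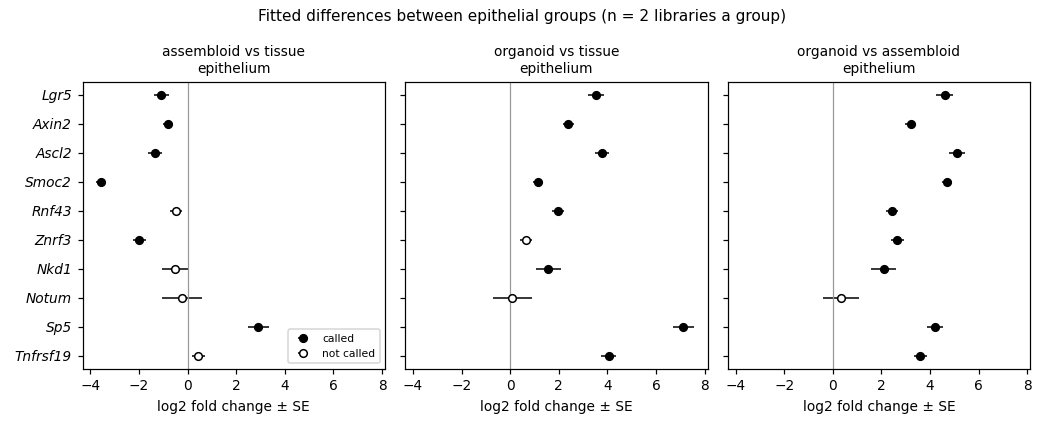
Fitted log2 fold change with its SE for each member in the 3 comparisons of epithelial groups, 2 libraries a group, with filled points for called and open points for uncalled genes. Smoc2 lies farthest below 0 between assembloids and tissue at -3.56, and Sp5 farthest above 0 between organoids and tissue at 7.12.

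With the main mitochondrial limit and equal depth per cell, the share of cells with an Lgr5 UMI followed the same order. An Lgr5 UMI was found in 2.94% and 6.91% of assembloid cells, 72.4% and 53.3% of organoid cells and 6.06% and 5.07% of tissue cells, so that assembloids and tissue overlapped. Depth per cell differed between these libraries, so each cell was thinned to 2000 UMIs and 6666 and 774 assembloid, 110 and 3387 organoid and 2246 and 1537 tissue cells below that depth were left out. After thinning, the shares were 1.16% and 1.67% for assembloids, 19.2% and 38.1% for organoids and 3.73% and 2.53% for tissue, and the groups no longer overlapped. Their exact binomial 95% intervals, which cover counting error only, ran from 1.02% to 2.03% over both assembloid libraries and from 1.98% to 4.56% over both tissue libraries. The unthinned tissue shares depended on the limit for mitochondrial UMIs. At most 5% gave 84 positive and 2910 negative tissue cells in replicate 1, and 51 and 1676 in replicate 2. At most 20% gave 752 and 7252, and 857 and 9512. In assembloids, the numbers were 673 and 22593, and 268 and 3804 at 5%, against 848 and 27893, and 571 and 8193 at 20%. The tissue shares lay above the assembloid shares at 20% but not at 5%. Thinned shares were not computed at these limits. In colonocyte-like cells, which are mature absorptive cells expected to lack Lgr5, the thinned share was 0.529% and 0.152% in assembloids and 0.351% and 0.243% in tissue. These rested on 16 of 3023 and 2 of 1312 assembloid cells and on 2 of 570 and 1 of 412 tissue cells. Their 95% intervals reached 0.858% and 0.550% in assembloids and 1.26% and 1.34% in tissue, so the groups cannot be ranked by them. Before thinning, cells of at least 2000 UMIs had a median depth of 4610 and 16058 UMIs over all assembloid classes and 10854 and 17047 in the colonocyte-like ones, and 17101 and 10461 against 18789 and 15936 in tissue. Cells of the same name in organoids still gave 2.5% and 20.5% (3 of 120 and 89 of 435 cells) and are no measure of background there. Among positive cells, 84.4% and 64.9% of those from assembloids, 20.5% and 28.2% from organoids and 42.6% and 63.8% from tissue held a single Lgr5 UMI.

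Next, the members were compared between Lgr5-positive cells, with at least 1 Lgr5 UMI, and Lgr5-negative cells of the same library. UMIs were summed for each and fitted with edgeR with the library as a block, and Lgr5, which defined the classes, was not tested. Lgr5-positive cells numbered 810 and 464 for assembloids, 3526 and 4262 for organoids and 284 and 218 for tissue. They were deeper than negative cells, with a median of 8509 and 21290 against 3368 and 13749 UMIs in assembloids. In organoids, the medians were 36840 and 14775 against 30640 and 1259, and in tissue 12067 and 8432 against 1922 and 3396. The comparison was therefore repeated on thinned cells, with Lgr5 status set again from the thinned counts. Cells that lost their Lgr5 UMIs in thinning thus counted as negative. In organoids, this left 912 and 1758 positive against 3850 and 2857 negative cells, beside 1346 and 3740 negative cells before thinning. The thinned effects are therefore no plain control for depth.

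In tissue, 6 of the 9 members tested were higher in Lgr5-positive cells (Axin2, Ascl2, Smoc2, Rnf43, Znrf3 and Sp5), against 10.8% of the 18229 genes tested that were called higher, 20.4% called lower and 31.1% called in either direction. Smoc2 rose from 15.3 and 16.6 CPM in negative cells to 141 and 119 in positive cells, a log2 fold change of 2.70 ± 0.15 (adjusted p = 3.77e-06). Ascl2 rose from 3.38 and 2.97 to 23.8 and 18.4 (2.40 ± 0.18, adjusted p = 1.16e-05). Both genes were thus higher in the positive cells of either library. Rnf43 went from 43.3 and 41.7 to 171 and 145 (1.56 ± 0.07, adjusted p = 2.9e-06) and Axin2 from 17.4 and 14.5 to 64.5 and 41.6 (1.40 ± 0.10, adjusted p = 9.9e-06). Znrf3 went from 58.0 and 54.9 to 185 and 119 (1.08 ± 0.11, adjusted p = 5.49e-05). Sp5 passed the test (adjusted p = 0.00193) on 8 UMIs in positive and 3 in negative cells, a ratio of 27.0 with a counting interval of 6.48 to 158. The interval treats UMIs as independent, although those of the 2 libraries lay in 3 and 4 cells. Tnfrsf19 was not called (0.62 ± 0.37, adjusted p = 0.33), and Nkd1 and Notum held 5 and 3 UMIs in all positive cells. With at most 5% mitochondrial UMIs, Tnfrsf19 was called (2.04, adjusted p = 0.0315) and the Smoc2 effect was 1.90 (adjusted p = 0.00909). Between the thinned cells, Smoc2 stood at 242 and 271 in positive against 29.6 and 26.7 in negative cells, and 5 members were called.

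In assembloids, 6 members were higher in Lgr5-positive cells as well (Axin2, Ascl2, Smoc2, Rnf43, Znrf3 and Sp5), against 9.53% of genes called higher, 12% lower and 21.5% in either direction. Smoc2 rose from 1.35 and 1.32 to 6.21 and 5.30 CPM (1.93 ± 0.26, adjusted p = 0.001) and Ascl2 from 1.32 and 1.07 to 5.23 and 3.18 (1.63 ± 0.21, adjusted p = 0.000949). The positive cells of assembloids thus held less Smoc2 than the negative cells of tissue, and their Ascl2 level came close to that of negative tissue cells in replicate 2. No test was made of these 2 differences across groups. Sp5 rose from 0.633 and 0.649 to 1.85 and 2.30 (1.52 ± 0.27, adjusted p = 0.00411). Znrf3 rose from 9.89 and 12.3 to 23.3 and 31.5 (1.13 ± 0.12, adjusted p = 0.000404), Rnf43 from 23.8 and 28.7 to 54.1 and 66.5 (1.03 ± 0.07, adjusted p = 0.000107) and Axin2 from 8.14 and 7.03 to 17.6 and 14.5 (0.91 ± 0.10, adjusted p = 0.000476). Tnfrsf19 was uncalled with all cells (0.45 ± 0.26, adjusted p = 0.269) and called without the highest cell (2.56, adjusted p = 0.00189) and under the stricter gate (2.89, adjusted p = 0.000265). With positive cells taken at 2 or more Lgr5 UMIs, the effects were 2.68 for Smoc2, 2.53 for Ascl2, 2.52 for Sp5 and 1.96 for Znrf3, more than 1.5 times the folds given above, and Tnfrsf19 was called (1.39, adjusted p = 0.0275). With thinned cells Rnf43 was the 1 member called. The thinned positive cells, 243 and 99 of them, held 3 and 2 Smoc2 UMIs and no Ascl2 UMI. Their effects were 2.00 for Smoc2 (adjusted p = 0.141), 0.81 for Znrf3 (adjusted p = 0.228) and 0.63 for Axin2 (adjusted p = 0.593).

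In organoids, 6 members were higher in Lgr5-positive cells (Axin2, Ascl2, Smoc2, Rnf43, Znrf3 and Tnfrsf19), against 5.64% of genes called higher, 8.14% lower and 13.8% in either direction. Smoc2 rose from 12 and 21.9 to 52.6 and 62.1 CPM (1.71 ± 0.14, adjusted p = 0.000126). The other differences were smaller, with Tnfrsf19 at 0.73 ± 0.15 (adjusted p = 0.0135), Rnf43 at 0.71 ± 0.06 (adjusted p = 0.00015), Znrf3 at 0.70 ± 0.10 (adjusted p = 0.00197), Ascl2 at 0.47 ± 0.10 (adjusted p = 0.014) and Axin2 at 0.44 ± 0.07 (adjusted p = 0.00475). Sp5 went from 13.6 and 10.1 to 17.8 and 15.2 and was not called (0.36 ± 0.16, adjusted p = 0.172). With thinned cells, 3 members were called (Smoc2, Rnf43 and Znrf3), and Ascl2 stood at 59.2 and 41.5 in positive against 57.4 and 44.6 in negative cells (-0.21, adjusted p = 0.458). Without organoid replicate 1, 2 members were called and 2.96% of all genes, and without organoid replicate 2, 4 members and 2.23%. Ascl2 lost its call with DESeq2 (0.43, adjusted p = 0.054) and Tnfrsf19 with at most 5% mitochondrial UMIs (0.77, adjusted p = 0.0738), and Sp5 was called without either assembloid library (adjusted p = 0.0124 and 0.0142).

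**Figure D3:**
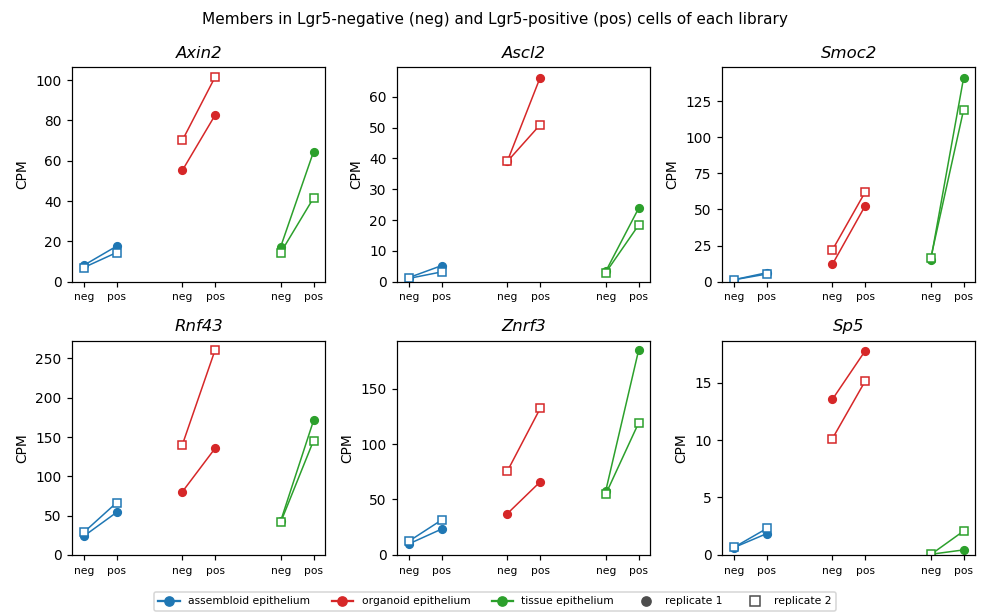
CPM of 6 members in Lgr5-negative (neg) and Lgr5-positive (pos) cells, with a line for each library, circles for replicate 1 and squares for replicate 2. Smoc2 and Ascl2 climb steeply in tissue, to 141 and 23.8 in replicate 1, while Ascl2 in organoids starts at 39.1 and 39.0 in negative cells.

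The size of the Lgr5-positive effect was then compared between groups, as a difference of log2 fold changes in the same fit. Organoids had smaller effects than tissue for Ascl2 (-1.93 ± 0.20, adjusted p = 0.000474), Smoc2 (-0.99 ± 0.20, adjusted p = 0.00804), Axin2 (-0.96 ± 0.12, adjusted p = 0.001) and Rnf43 (-0.85 ± 0.09, adjusted p = 0.000501), and Sp5 was called on the few tissue UMIs given above. These are 5 of 9 members, against 5.82% of genes called lower, 12.1% higher and 17.9% in either direction. For Znrf3, the difference of -0.38 ± 0.14 was not called (adjusted p = 0.101), although it was without tissue replicate 2 (-0.56, adjusted p = 0.00455), without either assembloid library (adjusted p = 0.0137 and 0.0157) and at 2 Lgr5 UMIs (-0.57, adjusted p = 0.0232). The difference of 0.11 ± 0.40 for Tnfrsf19 was not called (adjusted p = 0.926). Smoc2 lost its call without tissue replicate 1 (-0.73, adjusted p = 0.141) and without organoid replicate 2 (-0.60, adjusted p = 0.0627). Assembloids had a smaller effect than tissue for Rnf43 (-0.53 ± 0.10, adjusted p = 0.00842) and, by the same few UMIs, for Sp5, 2 of 9 members against 3.74% of genes called lower, 8.40% higher and 12.1% in either direction. Without tissue replicate 1, Rnf43 stood at -0.40 (adjusted p = 0.106). Axin2 (-0.49, adjusted p = 0.0514), Ascl2 (-0.77, adjusted p = 0.0884) and Smoc2 (-0.76, adjusted p = 0.107) missed the threshold between assembloids and tissue. All 3 were called with no low-count filter, without assembloid replicate 1 and with at least 1000 genes (adjusted p = 0.0133 to 0.0409), Axin2 also with DESeq2 (adjusted p = 0.0199) and without tissue replicate 2 (adjusted p = 0.0452), and Smoc2 without organoid replicate 2 (adjusted p = 0.0458). With at most 5% mitochondrial UMIs, however, Smoc2 stood at 0.19 (adjusted p = 0.916). Organoids had a smaller effect than assembloids for Ascl2, the 1 member called with all cells (-1.17 ± 0.23, adjusted p = 0.0261), against 2.30% called lower, 1.63% higher and 3.93% in either direction, and that call was lost without any 1 of 5 libraries, all but assembloid replicate 2 (adjusted p = 0.0509 to 0.127). With DESeq2, Axin2 (-0.51, adjusted p = 0.0255), Rnf43 (-0.36, adjusted p = 0.0132) and Sp5 (-1.20, adjusted p = 0.0393) were also called between these groups. In edgeR with no low-count filter, Sp5 was called as well (-1.08, adjusted p = 0.0325). Sp5 stood at -1.16 with all libraries and at -1.28 without assembloid replicate 1. Znrf3 stood at -0.43 with all libraries, -0.41 without tissue replicate 2 and -0.47 without assembloid replicate 1. At 2 Lgr5 UMIs, 5 members were called, namely Ascl2 (-2.04), Sp5 (-2.16), Znrf3 (-1.19), Axin2 (-0.79) and Rnf43 (-0.78), with adjusted p from 0.00413 to 0.0431. Under the stricter gate, the difference of organoids from assembloids was also called for Rnf43 (-0.44, adjusted p = 0.0217), Sp5 (-1.29, adjusted p = 0.0338) and Tnfrsf19 (-2.17, adjusted p = 0.00983), and that of assembloids from tissue for Tnfrsf19 (2.16, adjusted p = 0.0188) but no longer for Sp5. With positive cells taken at 2 or more Lgr5 UMIs, Rnf43 was no longer called between assembloids and tissue (-0.32, adjusted p = 0.118) and Znrf3 was called with the larger effect in assembloids (0.63, adjusted p = 0.0472). With at most 5% mitochondrial UMIs, the difference of assembloids from tissue for Rnf43 (-0.38, adjusted p = 0.296), those of organoids from tissue for Smoc2 (-0.43, adjusted p = 0.652) and Axin2 (-0.82, adjusted p = 0.06) and that of organoids from assembloids for Ascl2 (-1.17, adjusted p = 0.071) were not called.

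**Figure D4:**
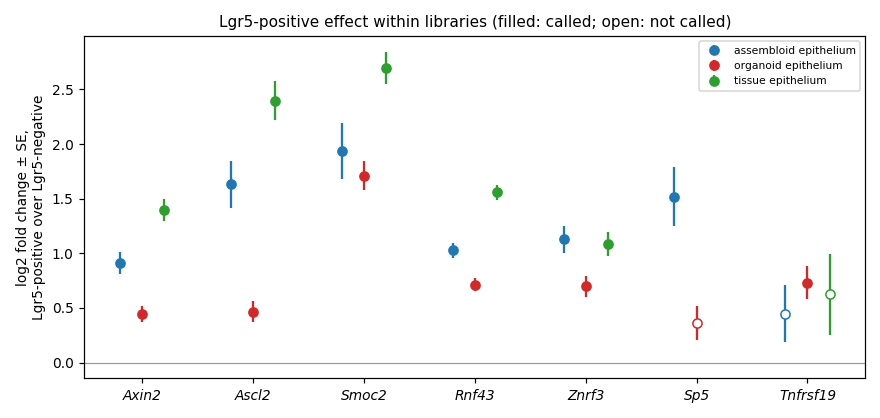
Log2 fold change with its SE of Lgr5-positive over Lgr5-negative cells in assembloids, organoids and tissue, filled where called. Tissue lies highest for Smoc2 at 2.70 and Ascl2 at 2.40, organoids lie lowest for Ascl2 at 0.47, and Sp5 in tissue is not drawn because it rested on 8 and 3 UMIs.

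Members also occurred together in single cells. Among thinned Lgr5-positive cells of tissue, the mean number of other members with a UMI was 1.43 and 1.09, against 0.337 and 0.321 in Lgr5-negative cells. In organoids, it was 0.967 and 1.27 against 0.641 and 0.861, and in assembloids 0.173 and 0.263 against 0.0856 and 0.109. At least 2 other members were found in 45.1% and 28.6% of positive tissue cells, 26.1% and 39.0% of positive organoid cells and 0.823% and 1.01% of positive assembloid cells. In negative cells these shares were 5.37% and 4.38%, 13.2% and 21.5%, and 0.354% and 0.788%. The mean was thus higher in positive than in negative cells of all 6 libraries, whereas the assembloid shares with at least 2 others rested on 2 of 243 and 1 of 99 positive cells. These values are a description over cells of the same libraries with no test.

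Cells of each library were clustered without the members, and clusters were named from other marker genes, with names ending in "-like". In tissue, Lgr5 stood at 137 CPM in the stem-like cluster of replicate 1 (322 cells), which has no counterpart of that name in replicate 2, and at 105 and 74.6 in the cycling-like clusters of 197 and 396 cells. It stood at 6.97 and 5.15 in goblet-like, 17.3 and 33.8 in enteroendocrine-like and 1.04 and 1.01 in colonocyte-like cells. Cycling-like cells therefore lay far above colonocyte-like cells in both libraries, and the stem-like cluster lay above them in replicate 1. Smoc2 followed with 102 in stem-like, 92.3 and 85.7 in cycling-like and 2.78 and 4.60 in colonocyte-like cells. Rnf43 was 216 in stem-like and 99.0 and 126 in cycling-like cells, and it kept 57.1 and 51.3 in goblet-like cells. Znrf3 differed from these in being high in enteroendocrine-like cells, at 212 and 103, beside 215 in stem-like and 157 and 152 in cycling-like cells. Clusters left without a name held 59.2% and 61.6% of the tissue cells that passed the gene and mitochondrial limits, with median depths of 1100 and 1625 UMIs.

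**Figure D5:**
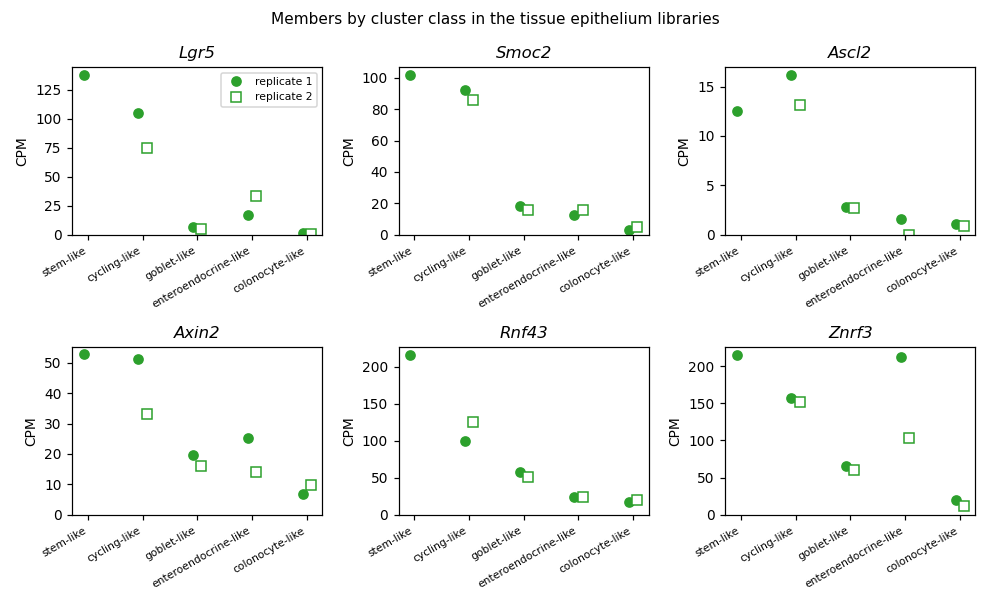
CPM of 6 members in the named cluster classes of the tissue libraries, circles for replicate 1 and squares for replicate 2. Stem-like and cycling-like classes lie highest for Lgr5 and Smoc2, colonocyte-like classes lie at about 1 CPM for Lgr5, and Znrf3 is also high in enteroendocrine-like cells at 212 and 103.

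In organoids, the classes differed less. Lgr5 stood at 562 in the stem-like cluster of replicate 2 and 190 in the cycling-like cluster of replicate 1, but also at 255 and 254 in goblet-like and 28.3 and 132 in colonocyte-like cells. Ascl2 stood at 50.5 in the stem-like and 84.2 in the cycling-like cluster and at 51.6 and 28.6 in goblet-like cells. In assembloids no cluster took the stem-like name. The highest Lgr5 of a named epithelial class was 11.1 in the cycling-like cluster of replicate 2, and colonocyte-like cells gave 5.53 and 0.981.

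Over the 59 epithelial clusters with at least 50 cells, the genes whose level was most like that of Lgr5 were Rad51b (Pearson r = 0.864), Tardbp (0.851), Rnf43 (0.849), Tiam1 (0.848) and Pola1 (0.846), among 6494 genes with a mean of at least 20 CPM. For Axin2 they were Pkhd1 (0.864), Nasp (0.845), Rnf43 (0.834), A630089N07Rik (0.832) and Hist1h1b (0.829). Rnf43 was the only member on both lists. The correlations are across clusters that share libraries and depth, on the log2(CPM + 1) scale, and carry no test.

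Other genes of the pathway were read from 4 lists. Of 15 further Wnt targets and feedback genes, 8 were higher and 2 lower in organoids than in tissue, against 24.3% higher and 22.9% lower over all genes, with a median log2 fold change of 1.09 beside 2.17 for the members. Lef1, a TCF/LEF factor, was the farthest at 4.65 ± 0.66 (adjusted p = 0.000717), followed by Wif1, a secreted Wnt inhibitor, at -3.97 ± 0.63 (adjusted p = 0.00121) and Apcdd1, a membrane Wnt inhibitor, at 3.33 ± 0.80 (adjusted p = 0.00907). Between assembloids and tissue, 6 of these genes were higher and 3 lower (26.6% and 23% over all genes), with a median of 0.54, led by Dkk2 (4.84 ± 1.01, adjusted p = 0.00499) and Dkk3 (4.29 ± 1.15, adjusted p = 0.0149), which encode secreted Dickkopf proteins, and Wif1 (-3.64 ± 0.61, adjusted p = 0.00182). Between organoids and assembloids, 6 were higher and 2 lower (24.3% and 28.4% over all genes), led by Dkk3 (-7.71 ± 1.40, adjusted p = 0.00232), Dkk2 (-4.70 ± 0.82, adjusted p = 0.00192) and the cyclin gene Ccnd1 (2.71 ± 0.25, adjusted p = 0.000139). The cells kept from assembloids also held fibroblast and macrophage transcripts, as given above, and their part in the Dkk2 and Dkk3 differences was not tested.

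Of 12 tested crypt base and progenitor genes, 3 were higher and 5 lower in assembloids than in tissue, beside 26.6% and 23% over all genes. Aqp4, a water channel, fell the most (-2.56 ± 0.32, adjusted p = 0.000449), with Rgmb, a BMP co-receptor, at -2.0 ± 0.21 (adjusted p = 0.000179), while Prom1 rose (2.27 ± 0.27, adjusted p = 0.000334). In organoids, 7 were higher and 3 lower than in tissue (24.3% and 22.9% over all genes), led by Cdca7 (2.77 ± 0.29, adjusted p = 0.000149), Msi1 (-2.70 ± 0.66, adjusted p = 0.00967) and Mex3a (2.30 ± 0.30, adjusted p = 0.000427). Over assembloids, 9 were higher and 2 lower (24.3% and 28.4% over all genes), led by Cdca7 (2.91 ± 0.29, adjusted p = 0.000183), Cdk6 (2.25 ± 0.25, adjusted p = 0.000257) and Kcnq1 (2.21 ± 0.30, adjusted p = 0.000639). Olfm4, on that list, did not pass the low-count filter.

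Wnt receptor genes that were called lay mostly below tissue in both cultures. Of 13 tested Frizzled, LRP and LGR genes, 8 were lower and 1 higher in organoids than in tissue (22.9% and 24.3% over all genes), with Fzd10 at 3.09 ± 0.54 (adjusted p = 0.00199), Fzd4 at -2.42 ± 0.34 (adjusted p = 0.00071) and Fzd9 at -2.05 ± 0.55 (adjusted p = 0.0152). In assembloids 6 were lower and 1 higher than in tissue (23% and 26.6% over all genes), led by Fzd9 (-4.10 ± 0.62, adjusted p = 0.00111), Fzd8 (-2.29 ± 0.35, adjusted p = 0.00117) and Fzd6 (-1.62 ± 0.25, adjusted p = 0.00117). Between organoids and assembloids, 4 were higher and 4 lower (24.3% and 28.4% over all genes), led by Fzd10 (4.13 ± 0.54, adjusted p = 0.000568). Among 16 genes of signal transduction, Tcf7l1, a mainly repressive TCF factor, changed by -5.23 ± 0.23 from tissue to organoids (adjusted p = 5.21e-06), by -2.14 ± 0.20 from tissue to assembloids (adjusted p = 0.000121) and by -3.09 ± 0.21 from assembloids to organoids (adjusted p = 4.74e-05). In all, 6 of these genes were higher and 3 lower in organoids than in tissue, 4 higher and 3 lower in assembloids than in tissue, and 3 higher and 2 lower in organoids than in assembloids, where 47.2%, 49.5% and 52.7% of all genes were called in either direction.

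In Lgr5-positive tissue cells, 7 of 14 tested further targets were higher, beside 10.8% of all genes, led by the adhesion receptor gene Cd44 (2.36 ± 0.20, adjusted p = 2.18e-05) and Ephb3, a guidance receptor of the crypt (1.40 ± 0.13, adjusted p = 3.68e-05). In assembloids 4 were higher (9.53% of all genes), with Ccnd1 first (0.63 ± 0.07, adjusted p = 0.00044). In organoids 2 were higher and 2 lower (5.64% and 8.14% of all genes), with Prox1 at -1.45 ± 0.39 (adjusted p = 0.0384). The 2 higher ones were Ephb3 (0.60 ± 0.10, adjusted p = 0.00643) and Ephb2 (0.42 ± 0.05, adjusted p = 0.00128). The Cd44 effect was smaller in assembloids (-1.99 ± 0.25, adjusted p = 0.00215) and in organoids (-2.49 ± 0.24, adjusted p = 0.000383) than in tissue. For these 14 genes, the difference from tissue was called higher for 0 and lower for 3 in assembloids, and for 0 and 5 in organoids. Over all genes, the shares were 8.40% and 3.74%, and 12.1% and 5.82%. Among 12 crypt base genes, 1 was higher and 6 lower in assembloids, and 1 and 4 in organoids. The higher gene was Aqp4 in both (1.46 ± 0.15, adjusted p = 0.00134, and 1.73 ± 0.14, adjusted p = 0.000334). Of the 12 crypt base genes, 8 were higher in Lgr5-positive cells of tissue, 6 of assembloids and 7 of organoids, beside 10.8%, 9.53% and 5.64% of all genes, and 1 was lower in tissue and in assembloids (20.4% and 12% of all genes). Kcnq1, a potassium channel gene, led in tissue (1.82 ± 0.07, adjusted p = 1.17e-06), Cdca7 in assembloids (1.11 ± 0.07, adjusted p = 0.000107) and Lrig1, a receptor regulator, in organoids (1.18 ± 0.06, adjusted p = 2.01e-05). Among 13 receptor genes, 3 were higher and 3 lower in Lgr5-positive cells of tissue, 2 and 1 of assembloids and 2 and 0 of organoids. Of 16 signal transduction genes, the counts were 2 and 5, 1 and 3, and 1 and 0. All-gene shares were 10.8% and 20.4%, 9.53% and 12%, and 5.64% and 8.14%. The difference from tissue was called higher for 1 receptor gene and lower for 2 in assembloids, and for 3 and 1 in organoids. For transduction genes these counts were 0 and 0, and 3 and 0.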

How the data were processed

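Whole UMI counts for each gene in each cell barcode were deposited by the authors, made from 10x Genomics 3′ v3 reads and not normalized. The labels name Cell Ranger 6 and mm10, whereas the file headers give Cell Ranger 6.0.1 for stroma and 7.1.0 for epithelium; whether intronic reads were counted is not given in the sources used here. From these counts, cells were selected as described (500 genes, 10% mitochondrial UMIs, epithelial gate), doublets were not removed, and UMIs were summed per library. The sums were tested with edgeR 4.0.16 in R 4.3.3 (low-count filter, TMM, quasi-likelihood F test, Benjamini-Hochberg adjustment over all genes tested), for the 6 epithelial libraries in 1 fit and for Lgr5-positive and Lgr5-negative cells with the library as a block. SE is the absolute log2 fold change divided by the square root of F. Folds of the main fits are given with at least 10 UMIs in each arm, and those of the alternatives with more than 3. The Sp5 ratio between Lgr5 classes of tissue falls below this limit and is given with its counting interval. Methods describe the 2 libraries of a group as biological replicates. Cells were clustered per library with Python 3.11.15 (3000 variable genes without the members, 30 components, 20 neighbours, Leiden resolution 0.5). The test scripts were tested on simulated data. The text names the 10 members and, from the further lists, called genes among the 3 with the largest change, but not all of these in every comparison. Receptor and signal transduction genes are given by count alone for Lgr5-positive cells. For the further lists, differences of the Lgr5-positive effect between organoids and assembloids are not given. Alternatives were DESeq2 1.42.0, no low-count filter, other cell limits, thinning to 2000 UMIs, 2 Lgr5 UMIs, the block added or removed, and each library left out; the stricter gate and the removal of the highest cell were chosen after seeing the data. Members, marker lists and gene lists were chosen with earlier results of these data known.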

Additional observations from a re-analysis of the deposited data

Results flagged for a closer look

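Leaving aside Sp5, called for 2 such differences on 8 and 3 tissue UMIs, there were 6 cases in which the difference between Lgr5-positive and Lgr5-negative cells was not of the same size in 2 groups, by the test of the difference itself (edgeR, as a difference of log2 fold changes). Rnf43 differed by -0.53 between assembloids and tissue, with effects of 1.03 and 1.56. Between organoids and tissue, Ascl2 differed by -1.93, Smoc2 by -0.99, Axin2 by -0.96 and Rnf43 by -0.85. The organoid effects were 0.47, 1.71, 0.44 and 0.71 and the tissue effects 2.40, 2.70, 1.40 and 1.56 in that order. Ascl2 also differed by -1.17 between organoids and assembloids, with effects of 0.47 and 1.63. Lgr5-negative organoid cells held 39.1 and 39.0 CPM of Ascl2, above the 23.8 and 18.4 of Lgr5-positive tissue cells. In cells thinned to 2000 UMIs, all 4 differences between organoids and tissue were called in edgeR, with -2.68 for Ascl2 (adjusted p = 0.00423) and -1.64 for Smoc2 (adjusted p = 1.32e-07) among them. Since Lgr5 status was set again after thinning, many organoid cells counted as negative there had held Lgr5 UMIs. These thinned values are therefore no control for depth. No member was called for the other 2 differences in thinned cells.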

How the results depend on the processing

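Of the members' log2 fold changes under the alternatives, 933 kept their direction and their side of the threshold, 59 lost the call, 42 gained one and 30 changed sign, and 15 more were not computed because a side held at most 3 UMIs. Without thinning, all 40 mean shares of cells with a UMI moved by more than 1 SD. Without the highest cell, 2 mean levels moved by more than 1 SD (38 did not). At Leiden resolution 0.25 or 1, 45 class levels moved by more than 1 SD (275 did not). Where a result changed, the cause was not tested. Same-numbered libraries did not deviate together (correlations of 0.0534, -0.0268 and -0.0281 over 19197 genes), so the numbers were not used as pairs, and a replicate block left the members called between epithelial groups at 6, 8 and 9. With 1 library left out, 3 to 7 members were called between assembloids and tissue (3 without tissue replicate 1, where the share of all genes called fell from 49.5% to 25.6%), 7 to 8 between organoids and tissue and 9 to 9 between organoids and assembloids.

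For Lgr5-positive against Lgr5-negative cells, leaving out 1 library gave 5 to 6 members called in tissue, 6 to 6 in assembloids and 2 to 7 in organoids (2 without organoid replicate 1, with 2.96% of all genes), and 0 to 5, 4 to 6 and 0 to 2 for the differences of assembloids from tissue, organoids from tissue and organoids from assembloids. The first difference lost all calls without tissue replicate 1 and gave 5 without assembloid replicate 1. Without the replicate block, edgeR called 0 members in assembloids (6 at an unadjusted p under 0.05), 0 in organoids (4) and 0 for each difference (2, 5 and 1), while of all genes it called 1, 0 and, for the differences, 0, 4 and 0. In tissue it still called 5 members and 4.95% of all genes without the block, and Znrf3 lost its call (1.09, adjusted p = 0.0714). Thinned cells gave 1 in assembloids and 3 in organoids. The difference of assembloids from tissue gave 5 calls with no low-count filter or with at least 1000 genes, 1 at 2 Lgr5 UMIs (Znrf3, with the larger effect in assembloids, while Rnf43 lost its call), and 0 with at most 5% mitochondrial UMIs (4 unadjusted) or thinned cells (1). That of organoids from tissue gave 2 with at most 5% mitochondrial UMIs. That of organoids from assembloids gave 4 with DESeq2 or the stricter gate, 2 with no filter or without the highest cell, 5 at 2 Lgr5 UMIs, and 0 with at most 5% mitochondrial UMIs (5 unadjusted) or thinned cells (0).

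Changes of sign were as follows. Between epithelial groups, Nkd1 (assembloids over tissue) was 0.022 with no epithelial gate, Tnfrsf19 was -1.03 under the stricter gate and without the highest cell, and Notum (organoids over tissue) was -0.21 with at most 20% mitochondrial UMIs. With 1 library left out, Notum ran from -1.18 to 0.39, -0.55 to 0.52 and -0.32 to 1.29 in the 3 comparisons. In organoids by Lgr5 class, Nkd1 was -0.068 with at most 5% mitochondrial UMIs and ran from -0.21 to 0.54 with 1 library left out, and thinned cells gave -0.21 for Ascl2 and -0.55 for Sp5. For the difference of assembloids from tissue, Znrf3 was -0.019 with DESeq2, -0.31 in thinned cells and -0.15 to 0.38 with 1 library left out, Smoc2 was 0.19 with at most 5% mitochondrial UMIs, and Tnfrsf19 was 0.19 at 2 Lgr5 UMIs, 2.16 under the stricter gate, 2.42 without the highest cell and -0.51 to 0.081 with 1 library left out. For that of organoids from tissue, Tnfrsf19 was -0.015 with DESeq2, -1.27 with at most 5% mitochondrial UMIs, -0.43 at 2 Lgr5 UMIs and -0.005 under the stricter gate. For that of organoids from assembloids, Tnfrsf19 was -0.62 at 2 Lgr5 UMIs, -2.17 under the stricter gate and -1.79 without the highest cell, and Smoc2 ran from -0.54 to 0.12 with 1 library left out.

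With 2 libraries a group and 3 residual degrees of freedom, small differences are beyond the fits. Nkd1, Notum and Sp5 in tissue rested on few UMIs, and shares of cells with a UMI depend on depth per cell. Intervals cover counting error only.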

Other observations

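The stroma libraries held small epithelial clusters of 56 and 43 cells, with median depths of 32083 and 33571 UMIs, although these cells were labelled stromal. Their Lgr5 level was 49.3 and 59.6 CPM (113 and 83 UMIs in 37 and 27 cells), against 6.56 and 7.96 in the assembloid epithelium libraries. Ascl2 stood at 64.2 and 48.8, Smoc2 at 37.1 and 43.8 and Rnf43 at 35.8 and 43.1 in them, so that the stem cell genes Lgr5, Ascl2 and Smoc2 all lay above their assembloid epithelium levels. Those levels are sums over all kept epithelial cells, colonocyte-like cells included, so small clusters are set beside whole libraries. The stroma libraries had median depths of 15448 and 13246 UMIs over all their cells, and doublets were not removed. The cells each library was labelled to hold and the version of the counting software differ between these libraries and cannot be told apart, and no test was made.

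Nkd1 stood highest in the fibroblast-like cells of the stroma libraries, which held 732 of 748 and 614 of 618 of the thinned cells with an Nkd1 UMI, and 7605 of 8969 and 8592 of 9016 of all thinned cells. In fibroblast-like cells of the stroma libraries (7618 and 8605 cells), Nkd1 stood at 48.9 and 36.4 CPM and Axin2 at 24.3 and 21.5. Fibroblast-like clusters of the assembloid epithelium libraries (844 and 654 cells) gave 1.53 and 3.24 for Nkd1 and 1.70 and 3.24 for Axin2. Glia-like cells of the stroma libraries gave 20.2 and 20.6 for Nkd1, and their Tnfrsf19 stood at 7.46 and 10.9. Neuron-like cells held Notum at 11.9 in replicate 1 (32 UMIs in 20 of 244 cells), whereas none was found in 188 such cells of replicate 2. Squamous clusters of 708 and 39 cells in the same libraries held Rnf43 at 12.2 and 7.45, against 0.251 and 0.113 in fibroblast-like cells. These values have no test and are given as found.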
